A study of Mus musculus with 32 samples.

Results

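Transcripts of the tibialis anterior were measured in Gaa-/- and wild-type (WT) mice aged 1.5 months, the youngest of the 4 ages of the series. The 8 arrays, 4 per genotype, were chosen of 32 by genotype and age alone, and all 19291 probe sets with a gene symbol were tested. Gaa-/- mice carried the genotype GAA-KO 6neo/6neo, a disruption of the mouse Gaa gene present in every tissue, and both genotypes had the B6/129 background. The labels state neither the sex of the animals nor whether the WT mice were littermates. Arrays of the same genotypes at 4, 6 and 9 months, again 4 each and from other animals, served to ask which differences were particular to 1.5 months. The tibialis anterior is a fast muscle of the lower leg.

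Acid alpha-glucosidase, the product of Gaa, is the lysosomal enzyme that breaks glycogen down to glucose. Its loss causes Pompe disease, in which glycogen collects in the lysosomes of muscle fibres, autophagy is disturbed and the contractile apparatus is later damaged. Glycogen stored in the cytosol of a fibre is broken down by another enzyme, glycogen phosphorylase, which the mutation leaves in place.

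Values are log2 RMA signals, in which a difference of 1 is a 2-fold change. Differences are Gaa-/- minus WT, given as estimate ± standard error from a limma fit to the 32 arrays. A gene is said to be called, or to have risen or fallen, where its p-value adjusted over all 19291 genes was under 0.05. Array medians ran from 5.664 to 5.818. Any 2 WT arrays at 1.5 months correlated with r = 0.9832 to 0.9881 across genes, any 2 Gaa-/- arrays with 0.9833 to 0.99, and arrays of different genotype with 0.9769 to 0.9842. The mean of 15 fast fibre genes was 12.67 to 12.77 in WT and 12.62 to 12.69 in Gaa-/-. The ranges of 3 Y-linked genes overlapped between the genotypes, least for Eif2s3y, at 7.52 to 8.2 in WT and 7.419 to 7.587 in Gaa-/-. Uty read 6.991 to 7.52 in WT and 6.748 to 7.286 in Gaa-/-, and Kdm5d 5.447 to 5.891 and 5.231 to 6.132. Eif2s3y and Uty thus lay above every array median in all 8 arrays, and the sex of the animals was not tested further.

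Of the 19291 genes, 700 (3.63%) were called at 1.5 months, 401 of them higher (2.08%) and 299 lower (1.55%) in Gaa-/-. The counts of called list members below are to be read against these shares. Values of the genotypes did not overlap for 1940 genes (10.1%) and for 636 of the 700 called genes. The median size of a called difference was 0.621 log2 units. Each fit was repeated with 1 of the 8 arrays left out, and below an array is named by genotype and replicate number, as in WT 4. The count of calls was 456 without Gaa-/- 1, when 255 were higher. The count of falls was 186 without WT 4 and 185 without Gaa-/- 3. No background level was measured, so a fold is best read as a lower bound where the dimmer genotype averaged less than 5.664, the lowest median of any array. This holds for 114 of the called genes, among them Mt3, Map1a, Gsta2, Rasd2, Rrad, Sgms2, Chrnd, Mmp12, Mpeg1 and Ccr2.

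Gaa itself read 10.28, 10.25, 10.09 and 10.55 in the 4 WT arrays and 6.63, 6.55, 6.55 and 6.69 in the 4 Gaa-/- arrays. Every Gaa-/- array was thus below every WT array, as the labels require. The difference was -3.69 ± 0.129 (limma adjusted p = 1.45e-19), a 12.9-fold reduction. Permuting the 8 arrays exactly (two-sided) gave p = 0.0286, the smallest it can give. Of the 100 genes tested nearest to Gaa, 50 on each side, 3 (3%) were called, all higher (Septin9, a filament-forming GTPase, by 0.63, Nploc4 by 0.46 and Hgs by 0.48), against 3.63% of all genes. The call of Hgs, whose product sorts proteins at endosomes, was lost without WT 3 or 4 or Gaa-/- 1 (adjusted p up to 0.0953).

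The genes with the 2 largest rises at 1.5 months, Mt3 and Mt2, encode metallothioneins, small proteins that bind zinc and copper and whose genes lie side by side in the mouse genome. Mt3 read 5.43, 4.74, 5.42 and 5.06 in WT and 9.01, 8.44, 8.58 and 8.92 in Gaa-/-. Mt2 read 8.86, 8.49, 7.63 and 9.62 in WT and 11.72, 11.73, 11.91 and 11.87 in Gaa-/-, and Mt1 9.68, 9.35, 9.29 and 10.41 in WT and 11.42, 11.25, 11.52 and 11.22 in Gaa-/-. In all 3 genes the lowest Gaa-/- array lay above the highest WT array, and the WT arrays differed more among themselves than the Gaa-/- arrays did for Mt2 and Mt1, with WT 4 the highest of its group. Mt3 rose by 3.58 ± 0.183 (adjusted p = 5.34e-15), Mt2 by 3.16 ± 0.281 (8.92-fold, adjusted p = 3.94e-09) and Mt1 by 1.67 ± 0.186 (3.18-fold, adjusted p = 2.64e-07). Among the 16 members of the list of metallothioneins and zinc transporters, the zinc importer gene Slc39a1 was the only other one called, at 0.33 ± 0.0948. That call was lost without WT 1, 3 or 4 or Gaa-/- 1, 2 or 4 (adjusted p up to 0.148). The median of the list was 0.107, against -0.0205 for all genes.

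**Figure D1:**
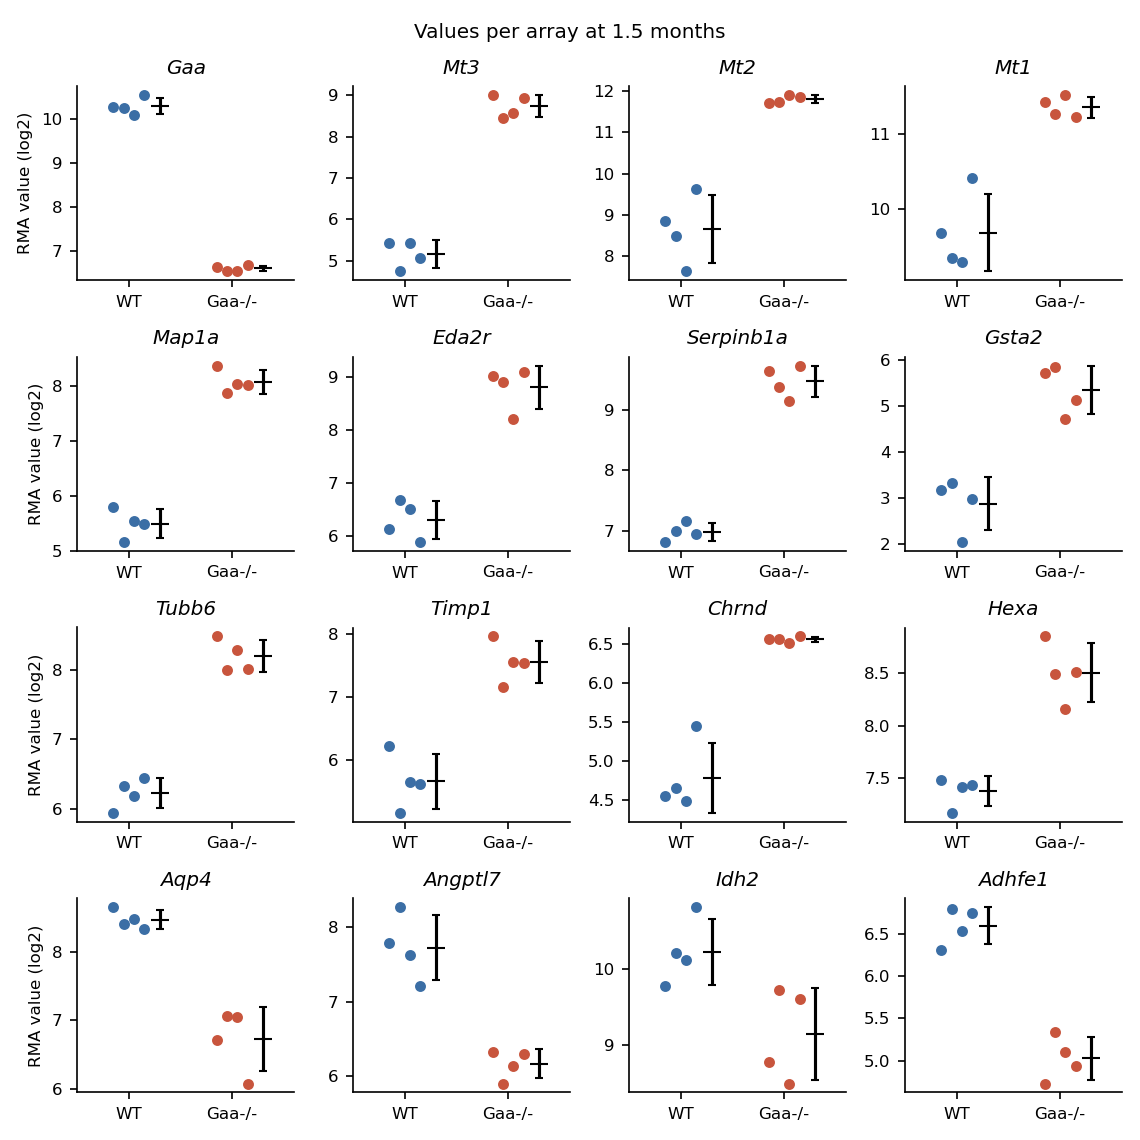
Log2 RMA values (vertical axes, each with its own range) of 16 genes in the 4 WT arrays (blue) and the 4 Gaa-/- arrays (red) at 1.5 months. Each point is an array, and the black mark and bar give the mean and SD of the group. Each of the 16 genes has its 4 Gaa-/- points wholly above or wholly below its 4 WT points.

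The promoters of these 3 genes are shown because the genes rose together. Mt1 and Mt2 are the best known targets of the metal-responsive transcription factor MTF1, which binds a short core. The letters searched here, TGCNCNC with any base at N, are a looser form of that core. The sequences are the 250 bases before the RefSeq start of each gene (build GRCm38.p6, plus strand), 5′ to 3′, with each match to TGCNCNC on either strand in capitals.
Mt1, chr8:94178839-94179088: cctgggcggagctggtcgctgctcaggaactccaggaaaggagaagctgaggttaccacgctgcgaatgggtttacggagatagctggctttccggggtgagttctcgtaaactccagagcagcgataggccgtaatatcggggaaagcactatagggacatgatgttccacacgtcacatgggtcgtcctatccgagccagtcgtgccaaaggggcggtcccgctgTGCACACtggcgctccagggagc
Mt2, chr8:94172368-94172617: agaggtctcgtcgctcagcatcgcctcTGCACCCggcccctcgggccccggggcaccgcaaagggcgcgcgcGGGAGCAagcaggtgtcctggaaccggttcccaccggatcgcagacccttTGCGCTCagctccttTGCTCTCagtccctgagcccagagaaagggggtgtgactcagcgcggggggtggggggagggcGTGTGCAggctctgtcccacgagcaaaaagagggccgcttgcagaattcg
Mt3, chr8:94152357-94152606: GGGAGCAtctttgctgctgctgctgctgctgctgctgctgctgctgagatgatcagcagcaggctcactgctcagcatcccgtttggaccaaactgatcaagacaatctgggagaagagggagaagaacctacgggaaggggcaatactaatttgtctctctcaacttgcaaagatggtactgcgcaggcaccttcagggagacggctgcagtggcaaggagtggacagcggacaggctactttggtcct
The Mt2 window held 5 matches and those of Mt1 and Mt3 held 1 each. Bases outside these windows, on either side, were not searched, so the counts do not tell how many matches lie nearby. The form searched is short and loose. Of 18969 promoter windows of the same length 48% held at least 1 match, while 5.51% held 3 or more. A match describes the letters of the window and not a bound site, and need not be a form that MTF1 binds.

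Genes of antioxidant defence controlled by the transcription factor NRF2 included 4 that rose and 1 that fell of 21 measured, with a list median of 0.145. Srxn1, which reduces oxidised peroxiredoxins, read 6.83, 7.02, 6.48 and 7.01 in WT and 8.21, 8.24, 7.95 and 8.11 in Gaa-/-. Its lowest Gaa-/- value exceeded its highest WT value by more than the whole range of either group. It rose by 1.29 ± 0.164 (adjusted p = 2.76e-06). The quinone reductase gene Nqo1 rose by 1.15 ± 0.194, the glutathione peroxidase gene Gpx1 by 0.77 ± 0.114 and the glutathione transferase gene Gsta2 by 2.48 ± 0.332. Another glutathione transferase gene, Gstm1, fell from 10.04 to 10.68 in WT to 9.30 to 9.71 in Gaa-/- (-0.76 ± 0.135). None of the 250-base windows of Srxn1, Gsta2, Gpx1 and Nqo1 held the antioxidant response core TGACNNNGC on either strand, a core that 10.7% of the promoter windows held. Bases further from the start were not searched, so this count does not tell whether these genes hold such a site.

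Among 18 targets of the stress-activated transcription factor p53, 3 rose and 0 fell. Eda2r, which encodes a receptor of the TNF family, read 6.13, 6.68, 6.50 and 5.89 in WT and 9.03, 8.90, 8.21 and 9.10 in Gaa-/-. Gaa-/- 3 was the lowest array of its group but still stood well above all WT arrays. The rise was 2.51 ± 0.268 (adjusted p = 1.29e-07). Phlda3, an inhibitor of the kinase AKT, rose by 1.09 ± 0.166. Perp, a protein of cell contacts, rose by 0.59 ± 0.16, a call lost without WT 1, 2 or 4 or Gaa-/- 2, 3 or 4 (adjusted p up to 0.106). The list median, 0.068, was close to that of all genes.

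The small heat shock proteins hold damaged muscle proteins in a soluble state, and HSPB8 works with its partners in the disposal of damaged filamin. Of 12 chaperone genes, 5 rose and 0 fell, with a median of 0.359. Hspb8 read 8.75, 9.02, 8.72 and 9.11 in WT and 10.21, 9.80, 10.03 and 9.96 in Gaa-/- and rose by 1.10 ± 0.155 (adjusted p = 1.73e-05). Hsph1 rose by 0.78, Hspb1 by 0.80 and Hspb2 by 0.40. For Cryab, encoding alpha B-crystallin, the groups overlapped (11.06, 11.54, 11.26 and 12.002 in WT and 12.12, 11.97, 12.29 and 11.94 in Gaa-/-). Its difference of 0.61 ± 0.17 was called with all arrays but not without WT 1, 2 or 3 or Gaa-/- 1 or 3 (adjusted p up to 0.177). The list had 3 called members without Gaa-/- 3, when Hspb2 missed the threshold (adjusted p = 0.0506). In the list of 19 genes of the integrated stress and unfolded protein responses, the transcription factor gene Xbp1 rose (0.80 ± 0.132), while the factor gene Atf4 read -0.56, a fall lost without WT 1, 2 or 4 or Gaa-/- 1, 3 or 4 (adjusted p up to 0.118).

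The microtubule cytoskeleton gave the highest number of rises of any list, 8 of 25 genes with 0 falls, and 24 of the 25 estimates were above 0 (median 0.257). By share it was passed by some shorter lists, such as that of the chaperones with 5 of 12. Map1a, a protein that stabilises microtubules and is best known from neurons, read 5.79, 5.16, 5.54 and 5.48 in WT and 8.37, 7.87, 8.03 and 8.02 in Gaa-/-. The gap between the genotypes was far wider than the range of either. It rose by 2.58 ± 0.144 (adjusted p = 4.38e-14). The tubulin gene Tubb6, known to be raised in regenerating and dystrophic fibres, read 5.94, 6.34, 6.19 and 6.44 in WT and 8.48, 7.999, 8.28 and 8.01 in Gaa-/- and rose by 1.97 ± 0.149 (adjusted p = 1.21e-10). Tubb4b rose by 0.81, Tuba4a by 0.59 and Tuba1c by 0.58, while Map1b rose by 0.61, a call lost without WT 2 or 4 or Gaa-/- 1 or 4 (adjusted p up to 0.0967). The list had 5 rises without Gaa-/- 1 or without Gaa-/- 4.

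Membrane repair reseals wounds of the fibre surface. Of 20 genes of endosomal sorting and membrane repair, 6 rose and 0 fell (median 0.166). Dysf, encoding dysferlin, which brings vesicles to a membrane wound, read 7.90, 8.10, 7.89 and 8.23 in WT and 9.29, 9.23, 9.11 and 9.14 in Gaa-/-, and the groups were separated by nearly a full log2 unit. Dysf rose by 1.16 ± 0.11 (adjusted p = 9.81e-09), the sugar-binding lectin gene Lgals1 by 1.30 ± 0.116 (adjusted p = 3.94e-09) and Trim72, encoding the repair protein MG53, by 0.87 ± 0.126. Anxa2 and Anxa6, annexins that assemble at calcium-exposed membrane, rose by 1.11 and 0.60. The caveolin gene Cav3 rose by 0.44, a call lost without WT 1 or Gaa-/- 1 (adjusted p up to 0.0971).

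The dystrophin complex and the costameres tie the sarcomeres to the membrane and the matrix. Of 18 such genes, 7 rose and 0 fell, with a median of 0.264. Nos1, the neuronal nitric oxide synthase anchored by this complex, read 8.53, 7.84, 8.33 and 8.24 in WT and 9.62, 9.56, 9.33 and 9.24 in Gaa-/-, with no overlap. It rose by 1.20 ± 0.134 (adjusted p = 2.63e-07). Vinculin (Vcl) rose by 0.70, the laminin chain gene Lama2 by 0.84, talin 1 (Tln1) by 0.54 and delta-sarcoglycan (Sgcd) by 0.46. Itga7 rose by 0.46, a call lost without WT 1 or 3 or Gaa-/- 1 or 4 (adjusted p up to 0.162). In the list of 14 genes of sarcomere remodelling and stretch, filamin C (Flnc) rose by 0.87 ± 0.125 and Xirp1, which gathers at sites of sarcomere damage, by 1.39 ± 0.249. Telethonin (Tcap), which caps titin, fell from 11.31 to 11.52 to 10.35 to 10.96 (-0.74 ± 0.142). Cardiac actin (Actc1), the form that skeletal muscle makes before maturity, read 11.48, 11.15, 11.27 and 10.91 in WT and 9.85, 9.69, 10.80 and 9.68 in Gaa-/-. Gaa-/- 3 was nearly a full unit above the rest of its group, yet below every WT array, and the difference was -1.20 ± 0.232 (adjusted p = 0.00128).

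All lists of this report were written with earlier results of these data known. Those of the Popeye, calpain and serpin families were written after their values had been seen. The counts of either kind describe the members and support nothing. All 3 genes of the Popeye family, membrane proteins that bind cyclic AMP, rose: Popdc3 by 0.92, Popdc2 by 0.64 and Bves by 0.50. Of 10 genes of the calpain system of calcium-dependent proteases, 4 rose and 1 fell: Capn2 by 0.75, the small subunit Capns1 by 0.52, the inhibitor calpastatin (Cast) by 0.60 and Capn1 by 0.38, against the muscle-specific Capn3 at -0.39. The call of Capn1 was lost without WT 2 or 3 or Gaa-/- 1, 2 or 4 (adjusted p up to 0.0944), and that of Capn3 without WT 2 or 4 or Gaa-/- 1, 2, 3 or 4 (adjusted p up to 0.158). Among 17 clade B serpins, intracellular protease inhibitors, 4 rose and 0 fell. Serpinb1a, an inhibitor of neutrophil serine proteases, read 6.81, 6.99, 7.16 and 6.94 in WT and 9.64, 9.38, 9.15 and 9.73 in Gaa-/- and rose by 2.50 ± 0.207 (adjusted p = 7.55e-10). Serpinb6a rose by 1.61 ± 0.119 (adjusted p = 6.69e-11). Both genes had all Gaa-/- arrays more than a full unit above all WT arrays.

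Several genes that an innervated fibre keeps low are markers of lost contact with the nerve. Of 16 genes of the neuromuscular junction, 3 rose and 0 fell (median 0.175), and of 17 genes of the denervation response 4 rose and 1 fell (median 0.32). Ncam1, an adhesion molecule that spreads over denervated and regenerating fibres, read 7.26, 7.23, 7.005 and 7.36 in WT and 8.96, 8.97, 8.91 and 8.85 in Gaa-/-. The arrays of each genotype lay close together and the genotypes far apart. Ncam1 rose by 1.71 ± 0.139 (adjusted p = 5.89e-10). The acetylcholine receptor subunit genes Chrnd, which read 4.55, 4.66, 4.48 and 5.45 in WT and 6.56, 6.57, 6.51 and 6.60 in Gaa-/-, and Chrna1 rose by 1.77 ± 0.191 and 1.18 ± 0.164. Acetylcholinesterase (Ache) rose by 0.62 and the transcription factor Runx1, which protects denervated fibres from wasting, by 0.83. Dach2, a repressor in this pathway, fell by 0.93, a call lost without Gaa-/- 4 (adjusted p = 0.0735). The satellite cell and regeneration list had 3 rises of 18 (Ncam1, desmin and Itga7), and none of Pax7, Myod1, Myog, Myh3 and Myh8 was among them. The estimates of these 5 were 0.14, 0.41, 0.33, 0.23 and 0.00.

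Genes that control muscle mass moved both ways, with 3 rises and 4 falls among 23. Myostatin (Mstn), the secreted brake on muscle growth, read 8.29, 8.29, 8.34 and 8.01 in WT and 7.25, 7.41, 7.44 and 7.24 in Gaa-/-, with no overlap, and fell by 0.90 ± 0.209 (adjusted p = 0.00827). Gdf11, its closest relative, read 5.55, 5.50, 6.09 and 5.70 in WT and 6.89, 7.20, 7.01 and 7.34 in Gaa-/- and rose by 1.40 ± 0.246 (adjusted p = 0.000383). The ubiquitin ligase gene Trim63 (MuRF1) rose by 0.69, a call lost without WT 2 or Gaa-/- 1 (adjusted p up to 0.0662). Klf15, a glucocorticoid-induced regulator of amino acid and lipid use, read 6.55, 6.87, 6.33 and 7.07 in WT and 5.85, 5.82, 5.46 and 6.08 in Gaa-/-, with no overlap (-0.90 ± 0.185, adjusted p = 0.00252). Mettl21c, a methyltransferase gene of muscle, read -1.14, a fall lost without WT 1 or 2 or Gaa-/- 2 or 4 (adjusted p up to 0.0893). The list had 1 rise without Gaa-/- 1, and 2 falls without WT 1 or without Gaa-/- 2.

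Calcium handling genes were divided as well, with 3 rises and 3 falls of 19. Rrad, a small GTPase that restrains calcium channels, read 4.45, 4.38, 4.45 and 4.83 in WT and 6.54, 6.66, 5.998 and 6.43 in Gaa-/- and rose by 1.88 ± 0.303 (adjusted p = 0.000127). The calcium channel subunit genes Cacnb1 and Cacng1 rose by 0.83 ± 0.104 and 0.80 ± 0.122. Junctophilin 1 (Jph1), which holds the sarcoplasmic reticulum to the transverse tubule, read 10.30, 10.32, 10.27 and 10.29 in WT and 9.59, 9.62, 9.64 and 9.62 in Gaa-/-. The values of each group were almost equal, and the difference was -0.68 ± 0.0773 (adjusted p = 4.21e-07). Camk2a read -0.51 (adjusted p = 0.0536 with the 8 arrays alone) and the store-operated calcium sensor Stim1 -0.41, the latter lost without WT 4 or Gaa-/- 3 (adjusted p up to 0.0769). Among 11 channels and transporters of the fibre, the water channel Aqp4, which sits in the membrane of fast fibres, read 8.66, 8.41, 8.49 and 8.34 in WT and 6.72, 7.06, 7.05 and 6.07 in Gaa-/-, the largest fall after Gaa (-1.75 ± 0.208, adjusted p = 8.96e-07). The chloride channel Clcn1 fell as well (-0.46) and the potassium channel Kcnn3, a marker of denervated fibres, rose (0.70), a call lost without WT 1 (adjusted p = 0.0768).

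Lysosomal genes were called in a few members at this age. Of 34 hydrolases 4 rose and 1, Gaa, fell, against 2.08% and 1.55% of all genes. In limma 11 of the 34 had an unadjusted p under 0.05, 9 higher and 2 lower. How many of all genes reach that p was not counted, so such counts, here and below, do not show a lean of a list. The list median was 0.188, against -0.0205 for all genes. Hexa, the alpha chain of the hexosaminidases, read 7.48, 7.16, 7.41 and 7.43 in WT and 8.86, 8.50, 8.16 and 8.51 in Gaa-/-, with no overlap, and rose by 1.14 ± 0.138 (adjusted p = 1.3e-06). The cathepsin gene Ctsz rose by 0.69 ± 0.127 (adjusted p = 0.000706). The protease gene Lgmn rose by 0.53, a call lost without WT 3 or Gaa-/- 1 (adjusted p up to 0.0545). Ctsa rose by 0.47, a call lost without WT 1 or 3 or Gaa-/- 1 or 2 (adjusted p up to 0.11). The list had 2 rises without WT 3 or without Gaa-/- 1.

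Of 19 lysosomal membrane proteins, 2 rose. The tetraspanin gene Cd63 read 9.22, 9.04, 9.06 and 9.14 in WT and 9.999, 9.92, 9.97 and 9.99 in Gaa-/- and rose by 0.85 ± 0.126 (adjusted p = 3.18e-05). Lamp1, a main glycoprotein of the lysosomal membrane, read 10.07, 10.13, 10.10 and 10.25 in WT and 10.60, 10.65, 10.25 and 10.59 in Gaa-/-, with Gaa-/- 3 next to the highest WT array. Lamp1 was called at 0.39 with all arrays but not without WT 1 or Gaa-/- 1, 2 or 4 (adjusted p up to 0.0677). Of the V-ATPase, which pumps protons into the lysosome, none of 16 subunits was called by limma, while 4 had an unadjusted p under 0.05 and 14 had estimates above 0 (median 0.16). None of 22 genes of the TFEB family and lysosomal nutrient sensing was called by limma and 1 had an unadjusted p under 0.05, with Tfeb itself at -0.05.

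Transcription factors of the TFEB family bind the letters CACGTG in the promoters of many lysosomal genes. Besides Gaa, 10 called genes of the lysosomal and autophagy lists had a promoter in the table used here (Hexa, Ctsz, Lgmn, Ctsa, Cd63, Lamp1, Sqstm1, Atg4d, Bnip3 and Calcoco1). Lamp1 held 4 matches, Bnip3 held 1, Lgmn and Ctsa held 1 each in 1 of their 2 windows, and the other 6 held 0. Such a match was found in 6.92% of all promoter windows, and 3 or more in 0.0738%. The stretch of the Lamp1 promoter with its matches in capitals is shown for that number (GRCm38.p6, plus strand, chr8:13159085-13159160).
Lamp1: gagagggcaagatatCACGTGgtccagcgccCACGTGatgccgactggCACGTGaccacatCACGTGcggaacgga
The count describes these letters and says nothing of the factor. Bases outside the windows were not searched.

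In autophagy, 2 of 34 genes of the machinery rose, against 2.08% of all genes. These were Map1lc3a, which coats the autophagosome, at 0.60 and the protease gene Atg4d at 0.47. The call of Atg4d was lost without WT 1 or 3 or Gaa-/- 1 or 2 (adjusted p up to 0.133). The list median was -0.0077. Of 12 receptors and mitophagy genes, Sqstm1, encoding the cargo receptor p62 that gathers ubiquitin-tagged material, rose. It read 10.02, 9.95, 10.01 and 9.997 in WT and 11.01, 10.91, 10.999 and 10.95 in Gaa-/-. The values of each group were almost equal, and the rise was 0.98 ± 0.0902 (adjusted p = 6.99e-09). Bnip3, a mitophagy receptor, fell (-0.46), as did Calcoco1 (-0.59), whose call was lost without WT 1 or 4 or Gaa-/- 3 (adjusted p up to 0.0873). Fitted to the 8 arrays of 1.5 months alone, neither was called (adjusted p = 0.0799 for Bnip3). Of 29 proteasome subunits only Psmd6 was called (0.47), near the 3.63% called over all genes. The call of Psmd6 was lost without WT 1 or 3 or Gaa-/- 1, 2 or 4 (adjusted p up to 0.125).

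Few genes of cytosolic glycogen metabolism were called. Of 12 genes of glycogen synthesis, Gbe1, the branching enzyme, rose (0.48 ± 0.114, adjusted p = 0.0101), with 7.96 to 8.12 in WT and 8.40 to 8.64 in Gaa-/-. Of 10 genes of glycogen breakdown and quality control, Phkg1, the catalytic subunit of phosphorylase kinase in muscle, fell (-0.58 ± 0.0896, adjusted p = 7.32e-05). In this breakdown list 9 of the 10 estimates were below 0 (median -0.0778). The mean of the list was 8.424 to 8.504 in WT and 8.306 to 8.417 in Gaa-/-, without overlap. Glycogen synthase (Gys1) read -0.14 ± 0.0927 and muscle phosphorylase (Pygm) -0.16 ± 0.0744, neither called. Of 17 genes of glycolysis and glucose uptake, the transporter gene Slc2a1 (GLUT1) read 7.33, 7.66, 7.14 and 7.01 in WT and 8.94, 8.58, 8.55 and 8.60 in Gaa-/-, a rise of 1.38 ± 0.188 (adjusted p = 8.97e-06). The phosphofructokinase regulator Pfkfb3 read 8.15, 9.23, 9.68 and 8.77 in WT and 8.01, 8.03, 7.52 and 7.45 in Gaa-/- and fell (-1.20 ± 0.242, adjusted p = 0.00202). WT 1 came close to the Gaa-/- arrays for Pfkfb3, so its groups only just failed to overlap.

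The subunits of AMP-activated protein kinase, the energy sensor that binds glycogen through its beta subunits, moved in opposite directions, again in a list of 7 written after the values were seen. Prkag2 read 6.20, 5.97, 5.56 and 5.81 in WT and 7.53, 7.19, 7.10 and 7.24 in Gaa-/- and rose by 1.38 ± 0.25 (adjusted p = 0.000589), and the catalytic subunit Prkaa1 rose by 0.57. The glycogen-binding subunit Prkab2 read 9.03, 9.14, 8.85 and 9.003 in WT and 8.27, 8.41, 8.26 and 8.42 in Gaa-/- and fell (-0.67 ± 0.136, adjusted p = 0.00222), as did Prkag3, the subunit of glycolytic fibres (-0.51). The groups did not overlap in any of the 4 genes.

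Fatty acids are a main fuel of muscle mitochondria. Of 18 genes of mitochondrial fatty acid oxidation 8 fell and 0 rose, and 17 of the 18 estimates were below 0 (median -0.418). Acadm, the medium-chain dehydrogenase, read 9.51, 9.66, 9.33 and 9.49 in WT and 8.65, 8.88, 8.70 and 8.87 in Gaa-/-, and the groups did not overlap (-0.72 ± 0.153, adjusted p = 0.0034). Etfdh, which passes electrons from these dehydrogenases to ubiquinone, read 10.03, 10.03, 9.76 and 10.20 in WT and 9.45, 9.54, 9.11 and 9.48 in Gaa-/- (-0.61 ± 0.128, adjusted p = 0.00296). Acadvl, the very-long-chain dehydrogenase, read -0.48. Hadhb, a subunit of the trifunctional protein, read -0.66, lost without WT 4 (adjusted p = 0.0529). Hadh read -0.53, lost without WT 1 or Gaa-/- 3 (adjusted p up to 0.0761), and Echs1 -0.61, lost without WT 2 or 4 or Gaa-/- 3 (adjusted p up to 0.083). The count of falls in the list was 5 without WT 2, and 4 without WT 4 or without Gaa-/- 3, with a median of -0.449 to -0.366 over all settings. Of 17 genes of fatty acid uptake and transport 3 fell and 0 rose (median -0.284), and 1 without WT 4. Lipoprotein lipase (Lpl), which frees fatty acids at the capillary wall, read 10.23, 10.21, 10.31 and 10.88 in WT and 9.68, 9.69, 9.30 and 9.74 in Gaa-/- (-0.81 ± 0.142, adjusted p = 0.000386). Pnpla2, the lipase that opens stored triglyceride, read -0.57, lost without WT 4 (adjusted p = 0.0714).

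Breakdown of the branched-chain amino acids takes place in the same organelle. In a list of 24 genes, written after the values were seen, 11 fell and 0 rose (median -0.475). Aldh6a1, an enzyme of valine breakdown, read 9.17, 9.33, 8.66 and 9.33 in WT and 7.87, 8.38, 7.61 and 8.32 in Gaa-/-, with no overlap (-1.08 ± 0.19, adjusted p = 0.000409). Subunits of the dehydrogenase complex that commits these amino acids to breakdown were lower together, Bckdhb at -0.77, Bckdha at -0.57 and Dbt at -0.81, the last lost without WT 2 or Gaa-/- 1 (adjusted p up to 0.0542). Acad8, which acts on the valine product, read -0.64 and Pcca, a subunit of propionyl-CoA carboxylase, -0.77. The list had 6 falls without WT 2 or without WT 4, and 7 without Gaa-/- 1 or without Gaa-/- 3.

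Around the citrate cycle, 7 of 24 genes fell and 0 rose (median -0.329), in another list written after the values were seen. Idh3g, a subunit of the NAD-dependent isocitrate dehydrogenase, read 11.71, 11.75, 11.51 and 11.69 in WT and 11.21, 11.20, 11.22 and 11.22 in Gaa-/- (-0.45 ± 0.0962, adjusted p = 0.0037), and Pdha1, of pyruvate dehydrogenase, -0.61, lost without WT 1 or Gaa-/- 1 (adjusted p up to 0.0617). Idh2, the NADP-dependent enzyme of the mitochondrion, read 9.77, 10.21, 10.12 and 10.82 in WT and 8.77, 9.72, 8.49 and 9.60 in Gaa-/-, wide in both groups, and its difference of -1.09 ± 0.278 was lost without WT 4 or Gaa-/- 1 or 3 (adjusted p up to 0.116). Pdk1 and Pdk2, kinases that switch pyruvate dehydrogenase off, were among the 7 (-0.40 and -0.36), as was Pdp1, the phosphatase that switches it on (-0.62). The call of Pdk2 was lost without WT 2, 3 or 4 or Gaa-/- 1, 3 or 4 (adjusted p up to 0.2), and that of Pdp1 without Gaa-/- 3 (adjusted p = 0.0537). The list had 4 falls without WT 2 or without Gaa-/- 4, 3 without WT 4, and 2 without Gaa-/- 1 or without Gaa-/- 3. Of 14 regulators of mitochondria 2 fell and 0 rose, among them Ppara, the nuclear receptor that switches on fatty acid oxidation, which read 7.29, 7.62, 7.43 and 8.27 in WT and 6.80, 7.01, 6.59 and 6.44 in Gaa-/- (-0.94 ± 0.187, adjusted p = 0.00172). Mfn1, which fuses mitochondria, read -0.47. Of 32 respiratory chain subunits Cox6a2 (-0.65) and Ndufs1 (-0.60) were called, both lower, the latter lost without WT 1, 2 or 4 or Gaa-/- 1 or 3 (adjusted p up to 0.117). In limma 10 subunits had an unadjusted p under 0.05, 9 of them lower, and 16 did not overlap between the genotypes, against 10.1% of all genes. The mean of the list was 10.85 to 10.94 in WT and 10.72 to 10.8 in Gaa-/-, and the list median was -0.135.

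Of 18 genes of amino acid and polyamine metabolism 6 fell and 0 rose, of which Bckdha and Bcat2 are also in the branched-chain list. Gpt2, the mitochondrial alanine aminotransferase, read 9.33, 9.37, 9.35 and 9.45 in WT and 8.41, 8.39, 8.60 and 8.01 in Gaa-/-, with the genotypes well apart (-1.02 ± 0.136, adjusted p = 6.23e-06). Ampd1, the muscle AMP deaminase, read -0.82 and Amd2, an enzyme of polyamine synthesis, -1.13. Both held in all 8 fits with 1 array left out.

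Markers of other tissues of the sample moved beside these falls, and their part in them was not tested. The mean of 8 adipocyte markers ran from 6.885 to 7.754 in WT and from 6.653 to 7.038 in Gaa-/-, so the groups overlapped, and WT 2 was the highest. All 8 estimates were below 0 (median -0.313), 0 were called by limma and 2 had an unadjusted p under 0.05. The mean of 9 tendon markers ran from 6.602 to 7.328 in WT and from 6.042 to 6.921 in Gaa-/-, with WT 4 low and Gaa-/- 1 high in their groups (median of the estimates -0.895). Angptl7 fell and Scx, the transcription factor of tendon, rose (0.71). Fmod, a tendon proteoglycan, read 9.15, 9.48, 9.10 and 8.35 in WT and 8.48, 7.13, 7.47 and 6.83 in Gaa-/- (-1.54 ± 0.498, adjusted p = 0.0844), and Tnmd, which marks tendon cells, 7.68, 7.54, 7.09 and 6.20 in WT and 6.99, 5.94, 6.25 and 5.75 in Gaa-/-, neither called. WT 4, the array low in tendon and adipocyte markers, was the highest WT array for Hadhb, Lpl and Idh2. WT 2, the highest in adipocyte markers, was the highest WT array for Acadm, Bckdhb, Dbt, Pcca and Idh3g. Whether the markers and these genes were linked was not tested. In bulk tissue, fewer cells of a type and less RNA per cell cannot be told apart.

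**Figure D2:**
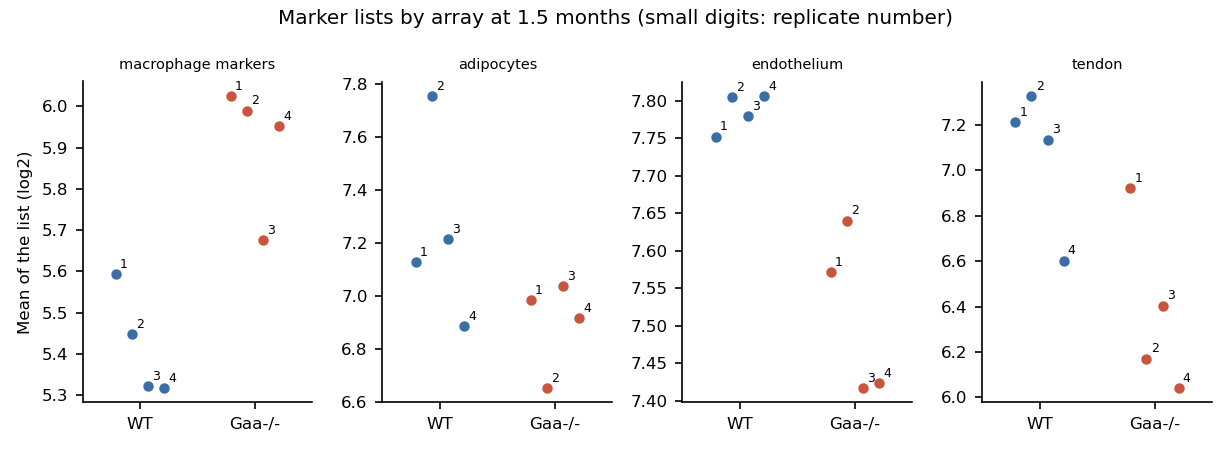
Mean log2 RMA value of 4 lists of cell type markers (vertical axes, each with its own range) in the 4 WT arrays (blue) and the 4 Gaa-/- arrays (red) at 1.5 months, with the replicate number beside each point. Macrophage and endothelium means do not overlap between the genotypes, while adipocyte and tendon means do.

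Immune cell genes rose in part. Of 21 macrophage markers 5 rose and 0 fell, 20 estimates were above 0 (median 0.372), and 7 members lay under 5.664 in both groups. The mean of the list ran from 5.318 to 5.593 in WT and from 5.676 to 6.024 in Gaa-/-. Lyz2, the lysozyme of macrophages and neutrophils, read 7.48, 7.16, 6.98 and 6.91 in WT and 9.04, 8.80, 8.55 and 8.64 in Gaa-/- (1.63 ± 0.235, adjusted p = 2.34e-05). Mpeg1, a pore-forming protein of phagocytes, rose by 1.42 and Ccr2, the chemokine receptor of incoming monocytes, by 1.24. Both genes read under 5.664 in every array of either genotype. The resident macrophage genes Mrc1 and Cd163 read 0.11 and -0.04, neither called. The list had 3 rises without WT 3, WT 4 or any 1 of Gaa-/- 1, 2 and 3. It had 2 with genes that averaged under 5.664 left out. Of 11 MHC class II and dendritic cell markers 4 rose, led by H2-Eb1 (6.33, 6.81, 6.39 and 6.44 in WT and 7.96, 7.86, 7.29 and 7.76 in Gaa-/-; 1.23 ± 0.199, adjusted p = 0.000127) and H2-Ab1 (0.79), and 2 without WT 1, 3 or 4 or Gaa-/- 1, 2 or 4. Of 12 T cell and NK cell, 7 B cell and 11 neutrophil markers limma called 0, with 0 at an unadjusted p under 0.05. Of these, 11, 7 and 11 lay under 5.664 in both groups, so the lack of calls says little. Of 15 interferon response genes limma called 0, with 2 at such a p, both lower, and 9 lay under 5.664 in both groups. The mean of the interferon list was 6.15 in WT 2 and 5.28 to 5.51 in the other WT arrays. The median of its estimates was -0.231, and 0.0308 without WT 2. Tnfrsf12a, the receptor of the cytokine TWEAK, read 6.47, 7.34, 7.11 and 7.20 in WT and 9.03, 8.39, 9.53 and 8.29 in Gaa-/- and rose by 1.78 ± 0.302 (adjusted p = 0.000245), the only call among 20 chemokine and cytokine genes. Of 11 genes of complement and the acute phase, Serpina3n rose and 0 fell.

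The extracellular matrix showed 6 rises and 0 falls among 20 genes (median 0.278). Loxl1, which cross-links elastin, rose by 1.04 ± 0.155 (adjusted p = 3.82e-05), the collagen VI genes Col6a3 and Col6a2 by 0.97 and 0.73, and Col3a1, which read 10.91, 9.91, 10.31 and 9.81 in WT and 11.53, 11.14, 11.38 and 10.94 in Gaa-/-, by 1.01 ± 0.198. WT 1 was the highest WT array for Col3a1 and came near the lowest Gaa-/- array. Among 17 matrix proteases and inhibitors 5 rose and 0 fell. Timp1, the metalloprotease inhibitor, read 6.22, 5.16, 5.65 and 5.62 in WT and 7.96, 7.16, 7.56 and 7.54 in Gaa-/- (1.89 ± 0.215, adjusted p = 4.21e-07), and Mmp12, the elastase of macrophages, 4.05, 4.05, 4.64 and 4.49 in WT and 5.88, 5.77, 5.91 and 6.40 in Gaa-/- (1.68 ± 0.298, adjusted p = 0.000427). The list had 3 rises without Gaa-/- 1. Cilp, a matrix protein, read 6.32, 6.51, 6.46 and 6.27 in WT and 8.48, 8.14, 8.03 and 8.10 in Gaa-/- and rose by 1.80 ± 0.173. The 12 markers of fibroblasts and fibro-adipogenic progenitors had a mean of 8.135 to 8.478 in WT and 8.278 to 8.465 in Gaa-/-, with 1 called, Col15a1 (0.48), and not without WT 2 or 4 or Gaa-/- 1 or 3 (adjusted p up to 0.104). The mean of 13 endothelial markers was 7.752 to 7.806 in WT and 7.417 to 7.64 in Gaa-/-, without overlap, and Tmem100, a membrane protein of endothelium, read 7.11, 7.34, 7.03 and 6.88 in WT and 5.45, 5.59, 5.44 and 5.64 in Gaa-/- (-1.56 ± 0.181, adjusted p = 5.38e-07). Flt1, a receptor of the vascular growth factor VEGF, read -0.41, lost without WT 2, 3 or 4 or Gaa-/- 1 or 3 (adjusted p up to 0.109). The endothelial cadherin Cdh5 read -0.20 and Pecam1 -0.17, neither called. Of 11 markers of smooth muscle and pericytes, Cspg4 rose (0.67).

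Genes of fibre type were not called. Limma called 0 of 15 fast fibre genes and 0 of 13 slow fibre genes, with 1 and 3 at an unadjusted p under 0.05, all lower. Myh4, the main myosin of this muscle, read 13.38, 13.39, 13.48 and 13.38 in WT and 13.47, 13.43, 13.37 and 13.43 in Gaa-/-, so the groups overlapped (0.02 ± 0.0777). Limma called 0 of 19 cell cycle genes, with 1 at an unadjusted p under 0.05, 0 of 8 Schwann cell markers, with 1, and 0 of 4 blood cell genes, with 0. Of 18 clock genes 1, Nfil3, was called (-0.71), against 3.63% of all genes. The call of Nfil3 was lost without WT 1, 2 or 4 or Gaa-/- 2, 3 or 4 (adjusted p up to 0.237). Clock genes follow the hour of sampling, which the labels do not give. Of 20 immediate early genes, Egr1 read 6.44, 6.68, 7.88 and 6.53 in WT and 8.37, 8.86, 8.07 and 8.52 in Gaa-/-, high in WT 3, and was called at 1.58 with all arrays but not without WT 1, 2 or 4 or Gaa-/- 1, 2 or 4 (adjusted p up to 0.101).

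**Figure D3:**
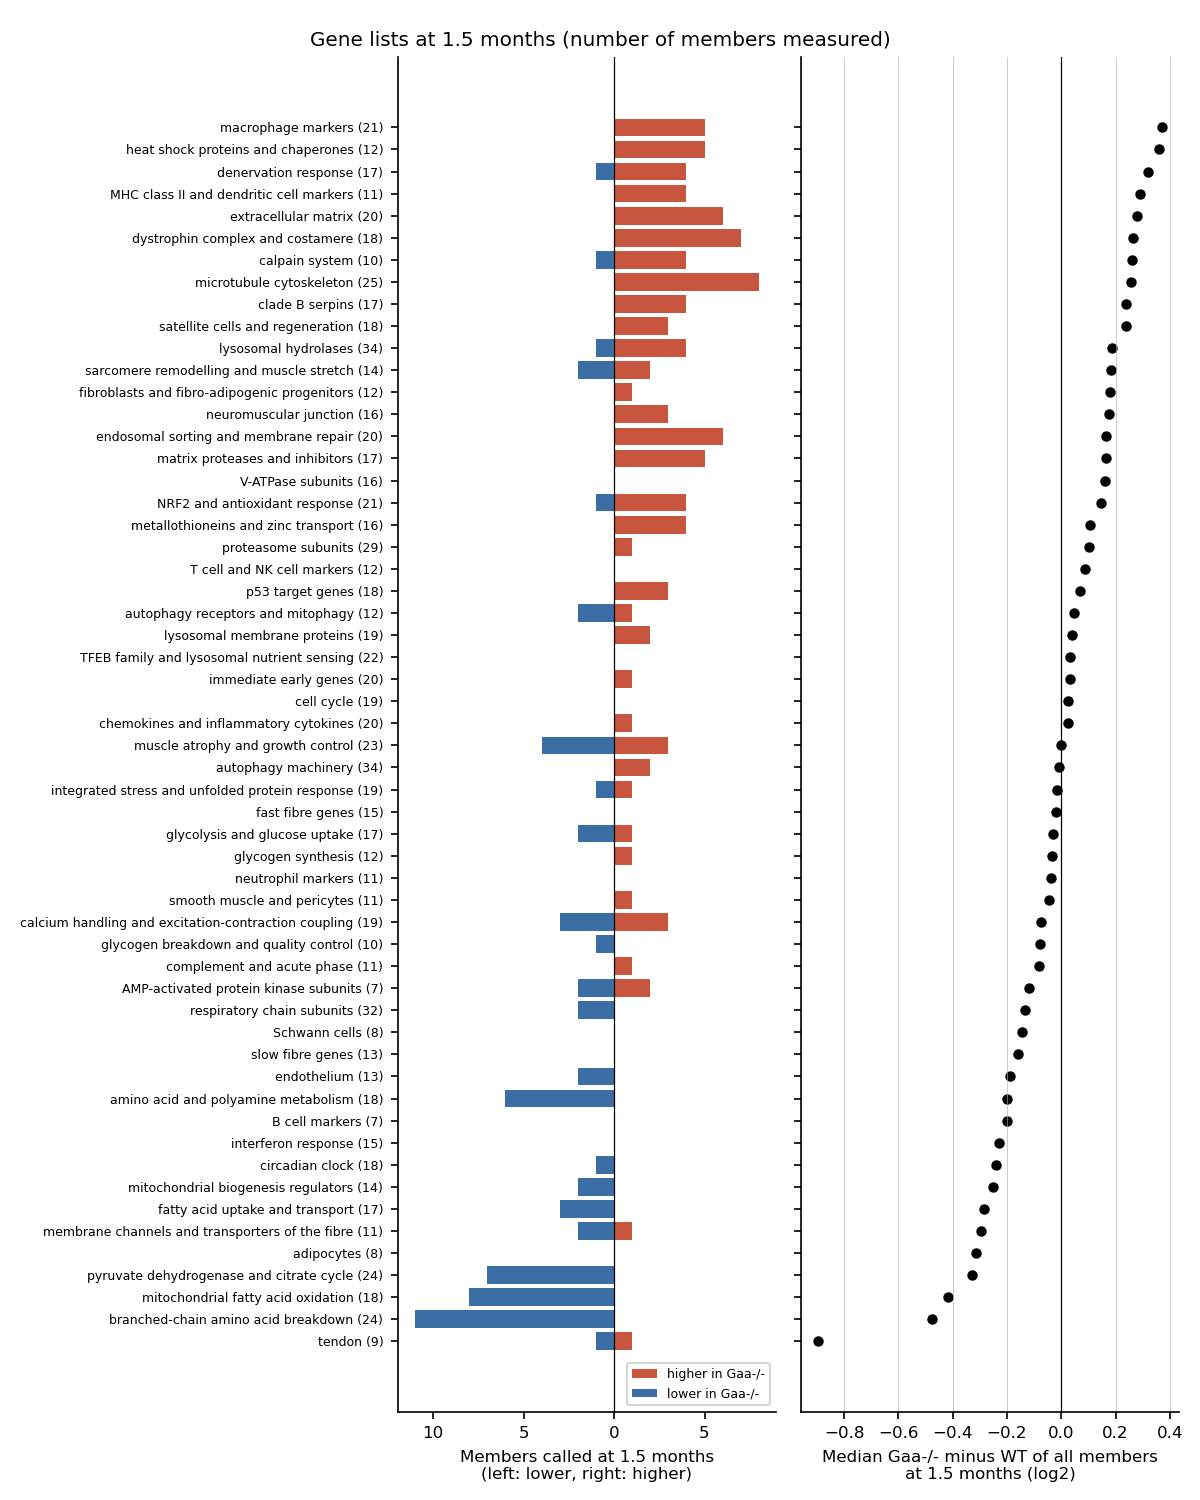
Left, the number of members called higher (red, to the right) and lower (blue, to the left) in Gaa-/- at 1.5 months in each of the gene lists with at least 7 measured members. Right, the median log2 difference (Gaa-/- minus WT) of all measured members. The number measured stands after each name. The microtubule list has the most rises (8) and the list of branched-chain amino acid breakdown the most falls (11), and the tendon list has the lowest median (-0.895) with 1 call each way.

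Other genes were among the largest changes outside these lists. The small GTPase Rasd2 read 4.65, 4.59, 4.28 and 4.60 in WT and 6.46, 6.77, 6.31 and 6.97 in Gaa-/- and rose by 2.10 ± 0.233 (adjusted p = 2.63e-07). The sphingomyelin synthase gene Sgms2 rose by 1.87 ± 0.236 and AI506816, a gene without a given function, by 2.20 ± 0.173. Among the falls, the potassium channel partner Lrrc52 read 6.49, 6.59, 6.04 and 8.54 in WT and 5.21, 5.88, 5.49 and 4.44 in Gaa-/-, with WT 4 far above the rest (-1.66 ± 0.352). The call of Lrrc52 was lost with the 8 arrays alone (adjusted p = 0.0813). Adhfe1, a mitochondrial enzyme that oxidises hydroxybutyrate, read 6.31, 6.79, 6.53 and 6.74 in WT and 4.73, 5.34, 5.10 and 4.94 in Gaa-/- (-1.57 ± 0.209, adjusted p = 7.03e-06). Slc25a25, a carrier of ATP and magnesium across the inner mitochondrial membrane, read 7.15, 7.55, 7.50 and 7.84 in WT and 5.54, 5.85, 6.23 and 6.34 in Gaa-/- (-1.52 ± 0.316, adjusted p = 0.00287). Inmt, a methyltransferase, read -1.24.

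The stage difference asks which changes were particular to 1.5 months. It is the genotype difference at 1.5 months minus the mean of those at 4, 6 and 9 months, tested in the same fit. It was called for 79 genes (0.41%), more positive at 1.5 months for 41 (0.213%) and more negative for 38 (0.197%). Of the 79, 34 had a smaller difference of the same sign at 1.5 months, 42 had opposite signs, and 3 (Angptl7, Dusp10 and Acad8) had a larger difference at 1.5 months. The stage call of Acad8 was lost in 10 of 19 alternatives, among them those without WT 1, 2 or 4 or Gaa-/- 1, 3 or 4, and against 4 months, 6 months or their mean. The count was 47 without WT 4 or without Gaa-/- 3 and 137 without WT 3. It depended on the later age chosen, with 9 genes against 4 months alone, 18 against 6 months alone, 282 against 9 months alone and 36 against the mean of 4 and 6 months. WT arrays at 9 months had a narrower spread of values (SD of an array 1.793 to 1.9) than WT arrays at 1.5 months (1.881 to 1.968), and the part of this in the result was not tested.

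In both the comparison at 1.5 months and the stage difference, 30 genes were called, a group formed after the values were seen. In 20 of them the change was further from 0 at 1.5 months or turned later, 7 higher and 13 lower in Gaa-/-. Dusp10, a phosphatase that silences the stress kinases p38 and JNK, read 8.51, 8.96, 8.32 and 8.01 in WT and 9.82, 9.80, 9.59 and 9.51 in Gaa-/- at 1.5 months, with no overlap. It rose by 1.23 ± 0.206 then, and the differences at 4, 6 and 9 months were -0.22, 0.32 and -0.07. The stage difference was 1.22 ± 0.237 (adjusted p = 0.0095), and was not called without WT 4 or against 6 months alone. The WT mean of Dusp10 was 8.45 ± 0.395 at 1.5 months, 9.52 ± 0.296 at 4, 9.32 ± 0.36 at 6 and 9.24 ± 0.218 at 9 months (± SD, n = 4 each). The Gaa-/- means were 9.68 ± 0.154, 9.30 ± 0.472, 9.64 ± 0.301 and 9.17 ± 0.105.

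Angptl7, an angiopoietin-like protein of tendon and eye, read 7.79, 8.27, 7.63 and 7.21 in WT and 6.32, 5.89, 6.14 and 6.30 in Gaa-/- at 1.5 months, with no overlap, and 0.54, 0.05 and -0.70 as differences at the later ages. Its stage difference was -1.52 ± 0.29 (adjusted p = 0.00923), not called against 6 or 9 months alone. Angptl7 belongs to the tendon list described above, in which 7 of 9 estimates were below 0. The muscle tubulin gene Tuba4a rose at 1.5 months (0.59 ± 0.112) and read 0.05, -0.20 and -0.04 later (stage difference 0.65 ± 0.129, adjusted p = 0.0103), a call lost against 4 months alone. Padi2, which turns arginine residues into citrulline, read 0.62 at 1.5 months, lost without WT 1, 3 or 4 or Gaa-/- 1, 2 or 3 (adjusted p up to 0.135), and -0.57, -0.28 and -0.35 later (stage difference 1.02 ± 0.202, adjusted p = 0.0103), a call lost against 4 or 6 months alone.

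Among the 13 lower genes, Aldh2, the mitochondrial aldehyde dehydrogenase, read 9.11, 9.25, 9.07 and 9.34 in WT and 8.76, 8.49, 8.32 and 8.68 in Gaa-/-, without overlap (-0.63 ± 0.123, adjusted p = 0.00153). Its later differences were -0.02, 0.34 and 0.38, and the stage difference of -0.87 ± 0.143 (adjusted p = 0.00242) held in every setting tried but 4 months alone. Dgat2, which completes the synthesis of triglyceride, read 7.79, 7.83, 7.88 and 8.48 in WT and 6.95, 7.67, 6.62 and 7.64 in Gaa-/- and turned from -0.78 at 1.5 months to 0.39, 0.45 and 0.79. Its stage difference was -1.32 ± 0.228 (adjusted p = 0.0037), a call lost against 4 or 6 months alone. Its call at 1.5 months was lost without WT 4 or Gaa-/- 1 or 3 (adjusted p up to 0.119). Idh2 turned from -1.09 to 0.16, 0.51 and 1.61 (stage difference -1.85 ± 0.321, adjusted p = 0.0037). Hadhb, Pnpla2, Klf15 and Mfn1 were also in this group, with later differences at 9 months of 0.52, 0.54, 0.57 and 0.40. The stage calls of Idh2, Hadhb, Pnpla2, Klf15 and Mfn1 were lost against the mean of 4 and 6 months, where 9 months is left out. Those of Hadhb and Klf15 were also lost without WT 2, WT 4, Gaa-/- 1 or Gaa-/- 3 (Klf15 without Gaa-/- 2 too), that of Pnpla2 without WT 4, Gaa-/- 1 or Gaa-/- 3, and that of Mfn1 without any of the 8 arrays but WT 3.

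For the lists, the median difference of fatty acid oxidation went from -0.418 at 1.5 months to -0.197, 0.0327 and 0.379 at 4, 6 and 9 months. That of branched-chain amino acid breakdown went from -0.475 to -0.396, -0.226 and -0.0312, and that of the citrate cycle from -0.329 to -0.228, -0.135 and 0.0873. Over all genes the medians were -0.0205, -0.0406, -0.00173 and -0.0304. The lists had 2, 1 and 1 members called in the stage difference, and they share the genes Echs1 and Pdk2, which stand in more than 1 of them.

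**Figure D4:**
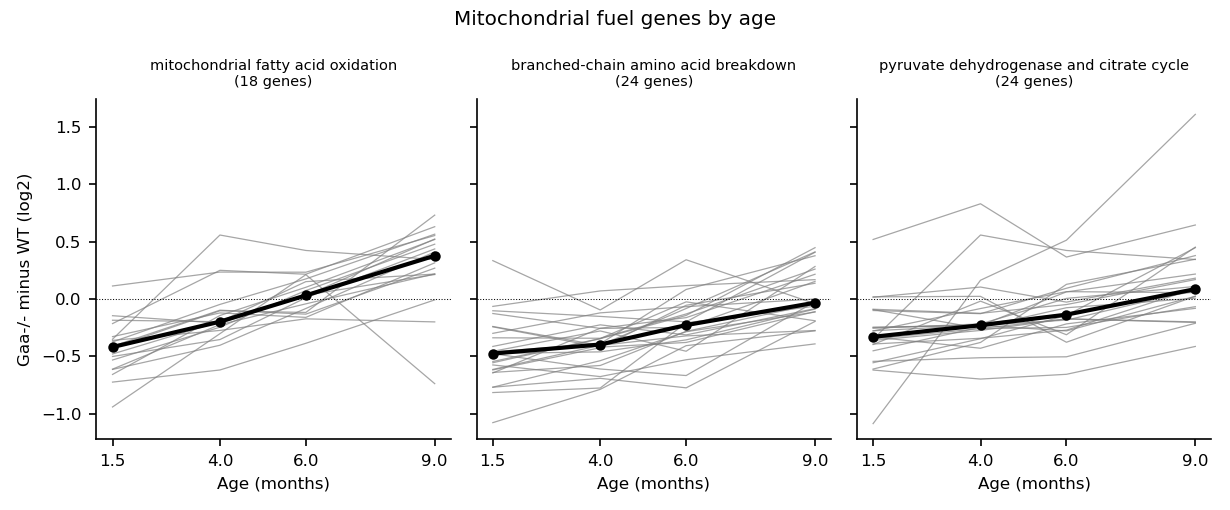
Gaa-/- minus WT difference (log2) at 1.5, 4, 6 and 9 months for the members of 3 lists of mitochondrial fuel genes. Grey lines are genes, and the black line is their median. The medians are lowest at 1.5 months, -0.418, -0.475 and -0.329 from left to right.

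The other 10 of these genes already differed at 1.5 months and differed more later. Serpina3n, a secreted protease inhibitor, rose by 0.65 ± 0.156 at 1.5 months, from 6.74 to 6.98 in WT to 7.44 to 7.71, and by 2.10, 2.21 and 2.44 later (stage difference -1.59 ± 0.18, adjusted p = 5.24e-06). Aqp4 went from -1.75 to -3.48, -3.50 and -2.86 (1.53 ± 0.24, adjusted p = 0.0014). Both held in all 19 alternatives tried. Ncam1 went from 1.71 to 2.60, 2.60 and 3.08, and Mstn from -0.90 to -1.89, -2.29 and -2.18. Both stage calls were lost against 4 or 6 months alone.

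Other genes with large later differences had none that could be called at 1.5 months. Slc15a5, a peptide transporter gene, read 6.90, 6.88, 6.92 and 6.76 in WT and 6.93, 6.64, 6.99 and 6.43 in Gaa-/-, with overlap (-0.12 ± 0.189, adjusted p = 0.878), against -1.70, -2.03 and -2.47 later (stage difference 1.95 ± 0.218, adjusted p = 5.24e-06). Mss51, a muscle mitochondrial protein, read -0.68 ± 0.223 (adjusted p = 0.0953) against -2.44, -2.24 and -2.30 (stage difference 1.65 ± 0.257). Both stage calls held in all 19 alternatives. Sarcolipin (Sln), which uncouples the calcium pump of the sarcoplasmic reticulum, read 6.82, 7.47, 7.20 and 7.66 in WT and 6.81, 7.48, 6.82 and 7.52 in Gaa-/-, with overlap (-0.13 ± 0.208), against 0.84, 1.25 and 1.85 later (stage difference -1.45 ± 0.241, adjusted p = 0.00242), lost against 4 or 6 months alone.

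**Figure D5:**
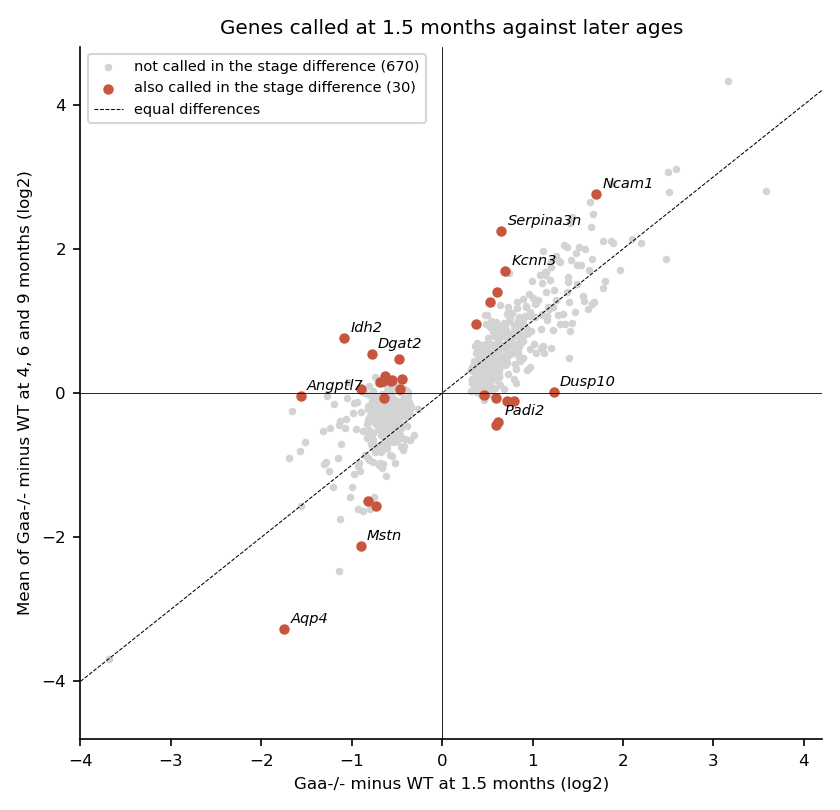
The 700 genes called at 1.5 months by their difference then (horizontal, log2) and the mean of their differences at 4, 6 and 9 months (vertical, log2). Red points are the 30 genes also called in the stage difference, and the dashed line marks equal differences. Red points near the horizontal axis or across it, as Dusp10, Angptl7 and Idh2, had no difference or the opposite one on average later, and those beyond the dashed line, as Aqp4 and Ncam1, differed more later.

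Most of the changes of 1.5 months were shared with later ages, which were measured on other animals. At 4, 6 and 9 months 1099 (5.7%), 1226 (6.36%) and 2299 (11.9%) genes were called. Of the 700 genes, 420 (60%) were called with the same sign at 4 months, 389 (55.6%) at 6 and 384 (54.9%) at 9 months, which are 38.2%, 31.7% and 16.7% of the calls at those ages. At all 3 later ages 294 were called with the same sign, among them Gaa, Mt2 and Map1a, and 579 had the same sign of estimate. Calls of opposite sign numbered 1, 0 and 15. The 184 genes called at 1.5 months alone, 66 higher and 118 lower, are not thereby particular to that age, since only 5 and 3 of them were called in the stage difference.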

How the data were processed

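RNA of tibialis anterior (100 ng, from about 20 mg of tissue, per the labels' protocols) was hybridised to 1-colour Affymetrix arrays, with 4 arrays per genotype and age, called biological replicates in the labels. The authors deposited log2 values made with RMA (affy package), per the submitters' processing notes. Their versions and the genome build were not given in the sources used here. RMA corrects background and quantile-normalizes the arrays together, so a shift common to all genes cannot be seen, and low signals are compressed.

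The deposited log2 values were used as they stand. A limma 3.58.1 model (R 4.3.3) with 1 mean for each of the 8 groups was fitted to all 32 arrays, and p-values, two-sided, were adjusted by Benjamini-Hochberg over the 19291 probe sets with a gene symbol. It was tested on simulated data first. The number of arrays, 4 per group, limits the precision, and the median residual SD was 0.228. Promoter letters are from RefSeq (GRCm38.p6). Figures were drawn with matplotlib 3.10.9 (Python 3.11.15).

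Named genes are Gaa, the 15 largest rises and falls without overlap, up to 6 called members per list with the smallest p plus its first members, and the 10 genes per direction class with the smallest p in the stage difference. Genes with both calls were added after the values were seen. The members and the 52 lists were chosen with earlier results of these data known, and 6 more lists after the values were seen. Alternatives were a filter on dim genes, an intensity trend, array weights, median centring, a second quantile normalization, the spread of each array as a covariate, a replicate block, the 8 arrays alone, other later ages, and each array left out. Probe sets without a gene symbol entered no list.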

Additional observations from a re-analysis of the deposited data

Results flagged for a closer look

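In 27 of 392 groups of 4 arrays at 1.5 months (6.89%), the array at 1 end stood apart, with a gap to its neighbour, divided by the range of the group, above Dixon's 95% critical value. Chance gives about 1 in 20 such groups. Gaa-/- 3 stood apart as the lowest array for Cacnb1 (0.881), Chrna1 (0.846), Lamp1 (0.834), Lpl (0.874), Mpeg1 (0.934), Nqo1 (0.926), Slc39a1 (0.94) and Trim63 (0.833). WT 4 stood apart as the highest array for Car11 (0.88), Dgat2 (0.868), Lpl (0.853) and Rrad (0.844). WT 3 stood apart as the lowest array for Acad8 (0.941), Anxa2 (0.845) and Rasd2 (0.838). Gaa-/- 4 stood apart as the lowest array for Padi2 (0.832), Tlcd3b (0.85) and Tmem37 (0.913). WT 3 stood apart as the highest array for Egr1 (0.833) and Perp (0.85). WT 4 stood apart as the lowest array for Lgals1 (0.867) and Mstn (0.848). Gaa-/- 1 stood apart as the highest array for Nfil3 (0.918) and Slc2a1 (0.877). Gaa-/- 3 stood apart as the highest array for Actc1 (0.85). Gaa-/- 1 stood apart as the lowest array for Cs (0.838). Gaa-/- 2 stood apart as the highest array for Got1 (0.982). Gaa-/- 3 is thus the array of 9 of the 27.

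The stage difference was called by limma for 40 named genes. The genotype difference at 1.5 months was more positive than the mean of the later ages, in log2 units, for Slc15a5 (1.95), Mss51 (1.65), Aqp4 (1.53), Tlcd3b (1.37), Dkk3 (1.23), Dusp10 (1.22) and Mstn (1.22). It was so too, by less, for Iqgap2 (1.05), Slc4a4 (1.05), Clu (1.03), Padi2 (1.02), Slc38a4 (0.923), Tmem37 (0.907) and Smco1 (0.833). The smallest such values were those of Atp13a5 (0.828), Ampd1 (0.68), Tuba4a (0.654), Hjv (0.509) and Stk40 (0.481). The genotype difference at 1.5 months was more negative than the mean of the later ages, in log2 units, for Idh2 (-1.85), Serpina3n (-1.59), Cyfip2 (-1.56), Angptl7 (-1.52), Sln (-1.45), Dgat2 (-1.32) and Ncam1 (-1.06). It was so too, by less, for Kcnn3 (-0.99), Klf15 (-0.959), Fxyd6 (-0.958), Aldh2 (-0.866), Gm3002 (-0.835), Hadhb (-0.817) and Map1b (-0.793). The smallest such values were those of Pnpla2 (-0.744), Tmbim1 (-0.734), Dgka (-0.729), Car11 (-0.639), Pgm5 (-0.585), Acad8 (-0.578) and Mfn1 (-0.53). Of these 40 calls, 36 were lost in at least 1 alternative. Those of Aqp4, Mss51, Serpina3n and Slc15a5 were kept in all 19.

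Outside the genes described above, 25 of 788 probe sets without a gene symbol (3.17%) were called at 1.5 months, 13 higher and 12 lower.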

How the results depend on the processing

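With array weights 1136 genes were called at 1.5 months (545 lower), and with the spread of each array as a covariate 1005 (476 lower). The count was 456 to 652 with 1 array left out, 255 to 380 for rises and 185 to 335 for falls. The other settings stayed within 1.5 times of 700, from 518 with the 8 arrays alone to 944 with dim genes left out. The stage difference called 191 genes with dim genes left out, 158 with an intensity trend, 338 with array weights, and 47 to 137 with 1 array left out. Against 4, 6 or 9 months alone it called 9, 18 and 282, and against the mean of 4 and 6 months 36. Replicate numbers recur across groups and were not taken to pair the samples. At 1.5 months the deviations of same-numbered arrays correlated with r = 0.0386, 0.213, 0.296 and 0.00787, near 0 for numbers 1 and 4 and higher for 2 and 3. Whether same-numbered arrays shared a factor was not tested beyond a replicate block. The replicate block called 689 genes at 1.5 months and 70 in the stage difference. Of 186 named genes called at 1.5 months, 113 were called in each of the 16 alternatives, 9 dim genes in each of the 15 that held them, and 64 were lost in at least 1, 59 of them without 1 array. The estimate of Hjv at 1.5 months, not called, ran from -0.00312 (without Gaa-/- 2) to 0.0469 with 1 array left out. Genes near the lowest array median have differences that compression may understate.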
